A study of Mus musculus with 8 samples.

Results

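ChIP-seq peaks that lay away from protein-coding genes were examined in mouse embryonic fibroblasts, primary connective-tissue cells, that were wild type or knockout for Peg3. A peak was included if its summit, the base of highest fragment coverage, lay on an autosome, outside the body of every RefSeq protein-coding gene of the mm10 build and more than 1 kb from either gene end. Of 581 listed peaks, 550 were autosomal, and 293 of these met the rule. The remaining 257 autosomal peaks lay in or within 1 kb of a protein-coding gene and serve as the comparison. The cells came from C57BL/6 embryos of the same age, 14.5 days post coitum, for both genotypes. For each genotype there was 1 PEG3 library and 1 H3K9me3 library, named for the antibodies used, and the peaks of both antibodies were called against the input of that genotype. The labels list 4 ChIP and 4 input samples, and describe the inputs of both antibodies of a genotype as the same raw data. They name neither the knockout allele nor the number of embryos or cell lines behind a library. A single sample per group allows no test of the genotypes and no p-value, and intervals (95%) cover counting error only.

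PEG3 is the zinc finger DNA-binding protein of an imprinted gene that is expressed from the paternal copy. H3K9me3, trimethylated lysine 9 of histone H3, marks silent chromatin and is known from repeated sequence next to centromeres, from clusters of zinc finger and vomeronasal receptor genes, and from transposable elements. Mouse autosomes carry the centromere at one end, so the first assembled bases of each chromosome lie next to it. Sequence of that kind occurs in many near-identical copies, and a fragment from one copy may be placed on another by alignment. Whether fragments with several possible positions were kept is not given in the sources used here.

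Of the 32851 RefSeq promoter windows (250 bases before to 50 after a gene start), 2 overlapped any of the 293 peaks. The 32851 include the windows of 1 chromosome that were not searched. Both overlapping windows belong to predicted long noncoding RNA (lncRNA) genes. The rule for including peaks all but bars windows of protein-coding genes, so neither the count nor the gene type is a finding. These 2 windows are shown because they carry a PEG3 peak pair and an H3K9me3 peak pair. The window of Gm51458 (chr7:127636864-127637163, plus strand, RefSeq, build GRCm38.p6) held a PEG3 peak in both genotypes, of 23 fragments in wild type and 14 in knockout. The window of Gm40237 (chr4:118547156-118547455, plus strand), which lies inside the gene body as the gene table gives it, held an H3K9me3 peak in both genotypes, of 75 and 84 fragments. Capitals mark the bases covered by the peaks of both genotypes.
Gm51458: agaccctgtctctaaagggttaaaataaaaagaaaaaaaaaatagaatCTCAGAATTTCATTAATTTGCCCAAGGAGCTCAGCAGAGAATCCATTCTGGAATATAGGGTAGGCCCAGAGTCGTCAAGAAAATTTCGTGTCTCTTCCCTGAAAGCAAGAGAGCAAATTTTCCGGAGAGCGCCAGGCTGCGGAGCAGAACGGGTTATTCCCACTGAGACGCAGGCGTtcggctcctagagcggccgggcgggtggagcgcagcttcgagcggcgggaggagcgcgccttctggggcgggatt
Gm40237: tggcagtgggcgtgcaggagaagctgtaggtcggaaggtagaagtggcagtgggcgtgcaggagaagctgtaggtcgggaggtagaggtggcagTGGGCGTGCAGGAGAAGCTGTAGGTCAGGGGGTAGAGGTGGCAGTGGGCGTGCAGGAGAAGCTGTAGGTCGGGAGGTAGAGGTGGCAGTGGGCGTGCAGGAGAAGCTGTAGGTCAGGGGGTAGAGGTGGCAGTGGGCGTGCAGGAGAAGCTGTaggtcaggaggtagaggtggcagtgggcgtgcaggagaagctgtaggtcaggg
The Gm40237 window consists of a repeated unit. Shifted by 44 bases it was identical to itself at 96.1% of positions, and shifted by 88 bases at 97.6%. The best shift between 20 and 100 bases reached 33.7% in Gm51458 and a median of 33.5% over all promoter windows, and 18 windows (0.0548%) reached 80% or more. This measure was chosen after the letters of Gm40237 had been seen. TGGCT, part of a motif reported for PEG3, had no match on either strand of either window, while 63.4% of all windows hold it. The full PEG3 motif, which contains TGGCT, is found in 0.484% of all windows. Gm51458 holds 19 CG dinucleotides and Gm40237 holds 10, against a median of 7, and TATAAA, present in 13.6% of all windows, was found in neither.

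A pair of microRNA genes on chromosome 9 lay at or next to a peak of the knockout PEG3 list. The mature sequences are given with the seed (bases 2 to 8) in capitals.
mmu-miR-101c: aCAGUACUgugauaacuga
mmu-miR-6236: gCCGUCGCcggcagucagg
The mature miR-101c (chr9:3038680-3038698, minus strand) lies 446 bp beyond the last of 27 knockout PEG3 peaks at the start of chromosome 9, whose summit is 495 bp from the Mir101c gene. That peak had 197 fragments and a fold enrichment (ChIP over local input, the authors' value per peak) of 1.96. The mature miR-6236 (chr9:110281353-110281371, plus strand) shares 9 of its 19 bases with a knockout PEG3 peak of 74 fragments and a fold of 4.96. Neither peak had a partner in the wild-type PEG3 list.

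The libraries kept between 16986250 and 27289192 ChIP tags, with knockout PEG3 the shallowest, and 24305045 and 26470256 input tags. The file headers give both knockout ChIP alignments, but neither wild-type one nor an input, a name ending in 31M; what it stands for, and whether reads were subsampled, is not given in the sources used here. At the targeted gene Peg3 (chr7:6703892-6730462), which is protein-coding and so outside the peaks described here, the PEG3 lists had 13 peaks in wild type and 19 in knockout, and the wild-type H3K9me3 list had 2. Peaks on the DNA of Peg3 do not check the loss of the protein.

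More of the knockout than of the wild-type PEG3 list lay away from protein-coding genes. The counts were 47 of 147 autosomal peaks in the wild-type PEG3 list (32.0%, exact Clopper-Pearson interval 24.5 to 40.2%) and 90 of 159 in the knockout PEG3 list (56.6%, 48.5 to 64.4%). The wild-type H3K9me3 list had 98 of 156 (62.8%) and the knockout list 58 of 88 (65.9%). Positions away from protein-coding genes make up 57.7% of the autosomal bases. Of the intervals, that of wild-type PEG3 lay below this share, but the intervals treat clustered peaks as independent. The knockout PEG3 share also rests on peaks near the duplicate limit described below, 45 of the 90 and 2 of the other 69. The peaks nearest to the 1 kb limit were 1167 bp (wild-type H3K9me3, Gm51573) and 1261 bp (wild-type PEG3, Cd248) from a gene on the inside, and 910 bp (knockout PEG3, Wls) and 882 bp (wild-type H3K9me3, Gm51572) on the outside. Few peaks lay far from every gene: 4, 5, 8 and 5 peaks of the lists, with PEG3 (wild type, then knockout) before H3K9me3 (wild type, then knockout), were over 50 kb from any RefSeq gene.

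The peaks were clustered. Merging peaks of all lists within 10 kb gave 110 regions, of which 64 held 1 peak, while the 10 regions with most peaks held 139 of the 293. Per list, the peaks fell into 38, 42, 52 and 32 regions in the same order. The largest region, with 30 peaks over 7580 bp at the start of chromosome 10 (chr10:3109562-3117141), ends before the pseudogene Gm3318 and held peaks of every list. The next, with 27 peaks over 37912 bp (chr9:3000323-3038234), held knockout PEG3 peaks only. Because peaks of a region share their surroundings, the number of regions is given beside peaks for some results below.

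**Figure D1:**
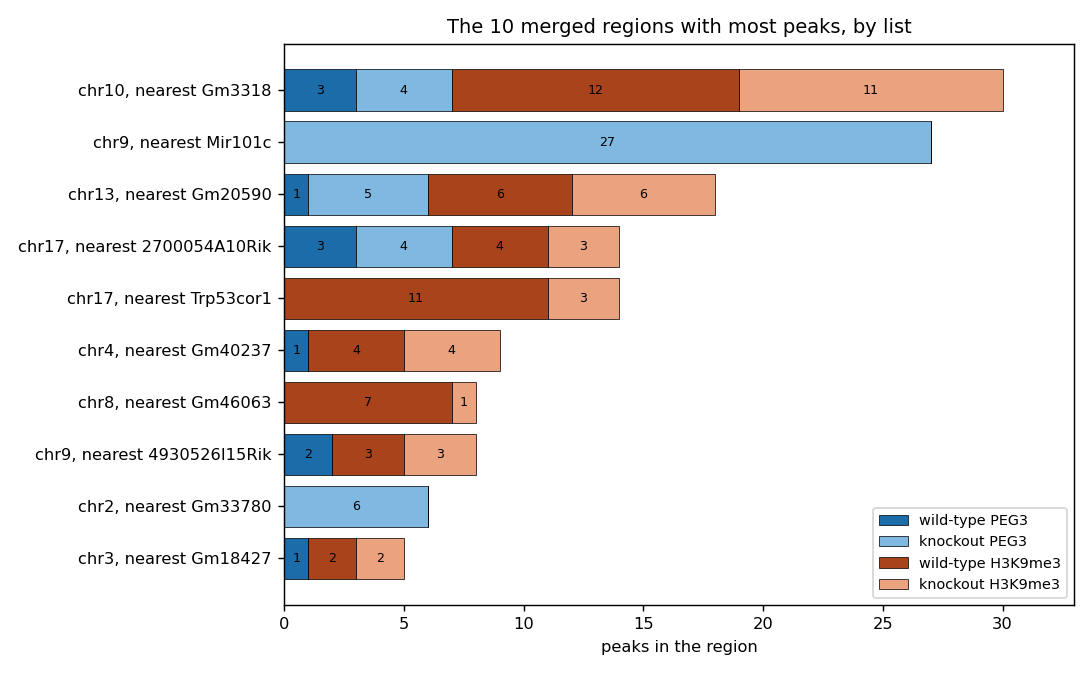
Number of peaks per list (x axis) in the 10 merged regions with most peaks, with bars stacked by list. Each region is named by chromosome and by the noncoding gene nearest to any of its peaks, which can be far away. The chromosome 10 region holds 3, 4, 12 and 11 peaks of the 4 lists, and the chromosome 9 region next to Mir101c holds 27 peaks of knockout PEG3 alone. A chromosome 14 region of 5 knockout PEG3 peaks ties with the last bar and is not drawn.

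Only 5 regions held peaks of all 4 lists, and they contained 70 peaks. In the chromosome 10 region, 12 wild-type and 11 knockout H3K9me3 peaks had 55 to 142 and 48 to 114 fragments. The PEG3 peaks there had fewer fragments, 3 in wild type with 36 to 60 and 4 in knockout with 27 to 59. These counts are not scaled for depth, and the knockout libraries kept 16986250 tags for PEG3 and 27289192 for H3K9me3. Adjacent H3K9me3 summits were a median of 486 bp apart in wild type and 542.5 bp in knockout, and the peaks covered 4295 and 4128 of the 7580 bp.

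In the pseudogene Gm20590 on chromosome 13 (chr13:74528695-74530631), 6 H3K9me3 peaks per genotype stood at nearly the same positions, with 95 to 136 fragments in wild type and 85 to 130 in knockout. The spacing of adjacent summits there was 270 to 472 bp in wild type and 269 to 483 bp in knockout. The PEG3 antibody gave 5 peaks of 51 to 77 fragments in knockout, each overlapping an H3K9me3 peak, and 1 peak of 92 fragments in wild type. The knockout folds of those PEG3 peaks ran from 3.52 to 7.81, and the wild-type fold was 3.19. The input background recovered behind them was 7.06 to 18.6 fragments (at the scale of the ChIP library) in knockout and 28.2 in wild type.

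The other 3 regions of all lists lie on chromosome 17, inside predicted or uncharacterised lncRNA genes. In 2700054A10Rik (chr17:13550681-13553129) the lists had 3, 4, 4 and 3 peaks, with H3K9me3 heights of 94 to 143 fragments in wild type and 78 to 134 in knockout, and PEG3 heights of 30 to 77 and 39 to 80. In Gm36684 (chr17:13305969-13306234) each list had 1 peak, of 51, 37, 111 and 81 fragments. In Gm34259 (chr17:4626162-4626600) each list again had 1 peak, and here the order of the antibodies was reversed. The PEG3 peaks had 204 fragments in wild type, where duplicate removal sets a limit of 208, and 198 in knockout, which is the limit there, with folds of 17.7 in wild type and 32.4 in knockout, and the H3K9me3 peaks had 90 and 101 fragments with folds of 8.42 and 9.0.

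**Figure D2:**
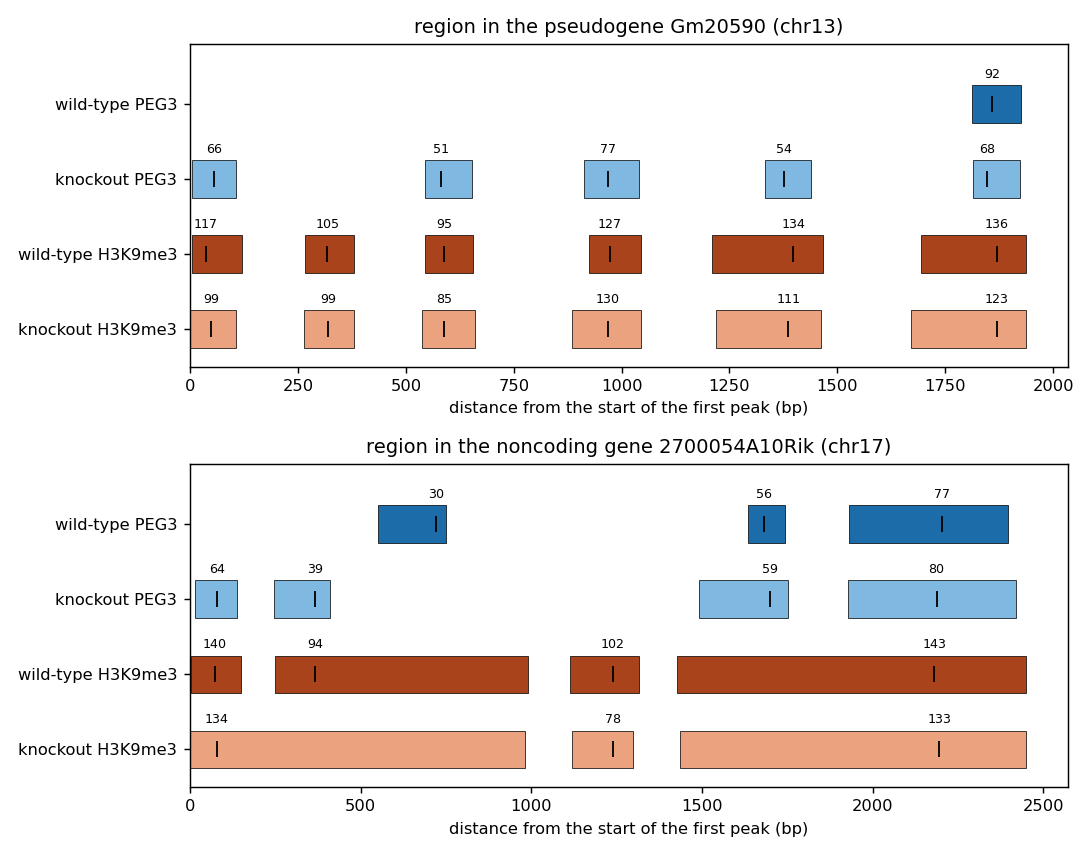
Peaks (bars) with their summits (ticks) and fragments over the summit (numbers) in the region in the pseudogene Gm20590 and the region in the lncRNA gene 2700054A10Rik, by list (rows) and distance in bp from the start of the first peak (x axis). In Gm20590, 6 H3K9me3 peaks per genotype align, and the 5 knockout PEG3 peaks fall on 5 of them.

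Several large regions held 1 antibody only. Between Cdkn1a, which encodes the cell cycle inhibitor p21, and Rab44 (chr17:29102865-29108521), 11 wild-type H3K9me3 peaks of 19 to 40 fragments and 3 knockout H3K9me3 peaks of 23 to 26 fragments were listed, with no PEG3 peak. On chromosome 8 (chr8:55351156-55371398), around the pseudogenes Gm46063 and Gm51590, 7 wild-type and 1 knockout H3K9me3 peaks of 15 to 33 and 17 fragments were listed. The median over all H3K9me3 peaks away from genes was 29 fragments in wild type and 64 in knockout. A site missing from a list has no height, so it is not known how far below the calling threshold it was. Knockout PEG3 peaks alone made up regions of 6 peaks on chromosome 2 (chr2:98662287-98667287), 5 on chromosome 14 (chr14:19415747-19418885) and 3 at the 18S ribosomal RNA-related pseudogene Rn18s-rs5 on chromosome 17 (chr17:39843074-39848274).

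Peaks near the centromeric end of chromosomes were common away from genes. In the first 3.3 Mb of an autosome lay 73 of the 293 peaks, on 8 autosomes. The first 3.3 Mb of all 19 autosomes make up 0.343% of the autosomal bases away from protein-coding genes (counted from base 3000138, the lowest start of an annotated gene). By list, 4 of 47 wild-type PEG3 (8.51%), 34 of 90 knockout PEG3 (37.8%), 20 of 98 wild-type H3K9me3 (20.4%) and 15 of 58 knockout H3K9me3 peaks (25.9%) lay there. Among peaks in or near protein-coding genes, 0 of 100, 0 of 69, 3 of 58 and 4 of 30 did; a count of 0 allows a share of up to 3.62% and 5.2% (upper Clopper-Pearson bounds). Of the 34 knockout PEG3 peaks, 27 were the chromosome 9 region, and without it the share was 7 of 63 (11.1%). For H3K9me3, the chromosome 10 region gave 12 of the 20 peaks of wild type, and of the 15 of knockout it gave 11. It also gave 3 of the 4 wild-type PEG3 peaks. Of the 73 peaks, the chromosome 9 and chromosome 10 regions held 27 and 30, so these peaks are not independent. A further H3K9me3 pair lay on chromosome 16 (chr16:3236045-3236260), where 27 wild-type and 28 knockout fragments gave folds of 11.5 and 11.8, among the highest H3K9me3 folds away from genes, and where the wild-type PEG3 list had a peak of 12 fragments. The recovered background of this H3K9me3 pair, 1.26 and 1.39, was near the lowest of each list away from genes. On chromosome 4, 5 wild-type and 2 knockout H3K9me3 peaks of 11 to 44 and 14 to 17 fragments lay between 3067867 and 3176992, and their nearest protein-coding gene was the vomeronasal receptor gene Vmn1r2. The wild-type peaks of 26 and 44 fragments lay 6835 and 3934 bp from Vmn1r2, and the other 5 peaks 87895 to 104103 bp from it. The nearest noncoding genes, Vmn1r-ps2 and Vmn1r-ps3, were 19511 to 36814 bp away.

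**Figure D3:**
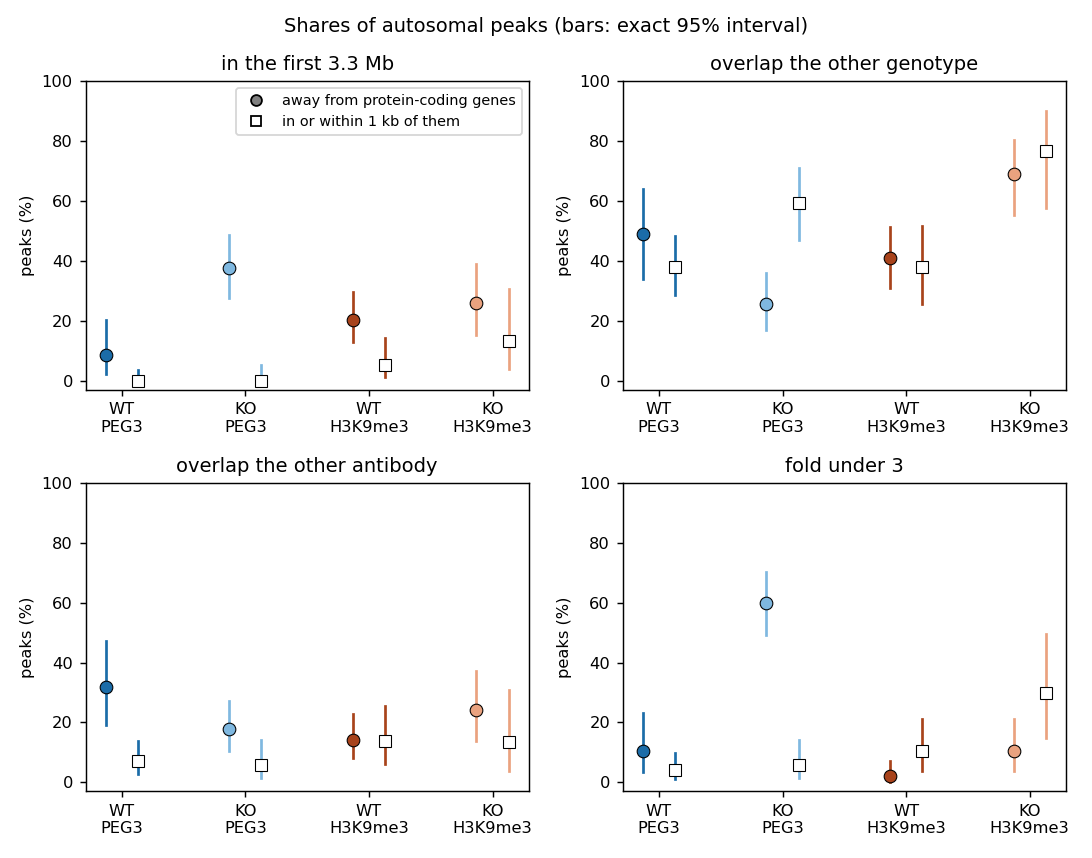
Shares of autosomal peaks (y axis, %) by list, for peaks away from protein-coding genes (circles) and peaks in or within 1 kb of them (squares), with exact 95% intervals that treat peaks as independent. The panels show the first 3.3 Mb, overlap with the other genotype, overlap with the other antibody, and folds under 3; knockout PEG3 stands out with 37.8% in the first 3.3 Mb and 60.0% under 3-fold.

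The summit lay inside an annotated noncoding gene for 16 of 47 wild-type PEG3 peaks (34.0%), 21 of 90 knockout PEG3 (23.3%), 25 of 98 wild-type H3K9me3 (25.5%) and 18 of 58 knockout H3K9me3 peaks (31.0%). Noncoding genes cover 14.5% of the bases away from protein-coding genes. The order of the lists was not the same for lncRNA genes and pseudogenes. In lncRNA genes lay 14, 12, 12 and 11 summits of the lists (29.8%, 13.3%, 12.2% and 19%, with 12.1% of bases), and in pseudogenes 1, 8, 13 and 6 (2.13%, 8.89%, 13.3% and 10.3%, with 1.71% of bases). Of the 8 knockout PEG3 and 6 knockout H3K9me3 summits in pseudogenes, 5 and 6 were the region in Gm20590, as were 6 of the 13 in wild-type H3K9me3. Without the 5 regions of all lists, the share in any noncoding gene was 26.3% and 13.3% for wild-type and knockout PEG3. For wild-type and knockout H3K9me3 it was 17.6% and 19.4%. No summit lay inside a transfer RNA gene in any list. The nearest was a wild-type H3K9me3 peak of 18 fragments 617 bp from n-TEctc7, on chromosome 1, with another of 27 fragments 2065 bp from n-TGgcc13.

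Among 14 autosomal imprinted genes, mostly noncoding, 2 had at least 1 of the 293 peaks within 10 kb. The gene counts of this paragraph leave out peaks in or within 1 kb of protein-coding genes, among them those at Peg3. No share over all genes was computed to set beside them. A wild-type PEG3 peak of 27 fragments and 7.69-fold lay 2409 bp from H19 (chr7:142580345-142580775), the maternally expressed lncRNA gene of the H19 and Igf2 domain, with no knockout partner. A pair of knockout H3K9me3 peaks of 32 and 53 fragments and folds of 3.56 and 5.24 lay inside Snhg14, the host of the small nucleolar RNA (snoRNA) clusters of the Prader-Willi region, and on either side of the snoRNA gene Gm25210, 306 and 702 bp away. Neither was in the wild-type list, and Snhg14 spans 1177441 bp. Of 13 abundant structural RNA genes, 1 had a peak, Rn18s-rs5, with knockout PEG3 peaks of 84, 132 and 134 fragments at folds of 2.08 to 2.58. Of 11 lncRNA genes of silencing or fibroblasts, 0 had such a peak within 10 kb in any list. Of 578 pseudogenes of repeated families, chosen by symbols that contain -ps, 4 had 1, all with H3K9me3: Vmn2r-ps16 (wild type, 13 fragments), Vmn1r-ps47 (knockout, 24), Znf41-ps (knockout, 22) and Vmn1r-ps60 (51 in wild type and 55 in knockout). Pseudogenes of such families with other symbols were not counted. At Vmn2r125, classed as a pseudogene, H3K9me3 peaks of 29 fragments in wild type and 30 in knockout lay at least 1504 bp away. Further wild-type H3K9me3 peaks lay inside the pseudogenes Speer8-ps1 and Speer4cos, of 40 and 27 fragments.

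Knockout PEG3 peaks away from genes were split by height, at 80% of the limit that duplicate removal sets. The first set, 45 peaks at or above that level, had 162 to 198 fragments (median 195) and a median fold of 1.76. The other 45 had 10 to 134 fragments (median 40) and a median fold of 4.96. Wild-type PEG3 peaks had a median of 30 fragments and 5.18-fold. Wild-type H3K9me3 peaks had a median of 29 fragments and 5.05-fold, and knockout H3K9me3 peaks 64 fragments and 5.37-fold. In the knockout PEG3 list 54 of 90 peaks (60.0%) had a fold under 3, against 4 of 69 (5.80%) in or near protein-coding genes. In the other lists 5 of 47, 2 of 98 and 6 of 58 did.

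The first set is thus defined by this limit, and 36 of the 90 knockout PEG3 peaks stood at 95% or more of it. Since duplicates were removed down to 1 tag per position, the coverage of a base cannot exceed 208, 198, 194 and 196 fragments in the 4 libraries, in the order above. At 80% or more of that limit stood 1 of 47 wild-type PEG3, 45 of 90 knockout PEG3, 0 of 98 wild-type H3K9me3 and 0 of 58 knockout H3K9me3 peaks. Over all listed peaks, those at genes included, the counts were 1 of 152 (0.658%), 47 of 163 (28.8%), 1 of 173 (0.578%) and 0 of 93 (0%). The 45 knockout peaks lay in 10 regions, 27 of them in the chromosome 9 region with 168 to 198 fragments and folds of 1.5 to 1.97. The recovered input background of the 45 was a median of 85.4% of the limit of the input. In the knockout PEG3 library the input was scaled by 0.642. A base at the limit in both ChIP and input would there have a fold of 1.55 and a −log10 p of 8.65. The lowest listed −log10 p was 6.48. In wild-type PEG3 such a base would have a fold of 1.14 and a −log10 p of 1.49, below the lowest listed 6.00, and in the H3K9me3 libraries folds of 0.925 and 0.970. These are calculated values, and why the 45 peaks were listed was not tested. Of the 45 peaks 1 had a partner in wild-type PEG3, the peak in Gm34259, whose fold of 32.4 also set it apart. Without peaks at the limit, 45 knockout and 46 wild-type PEG3 peaks were left.

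**Figure D4:**
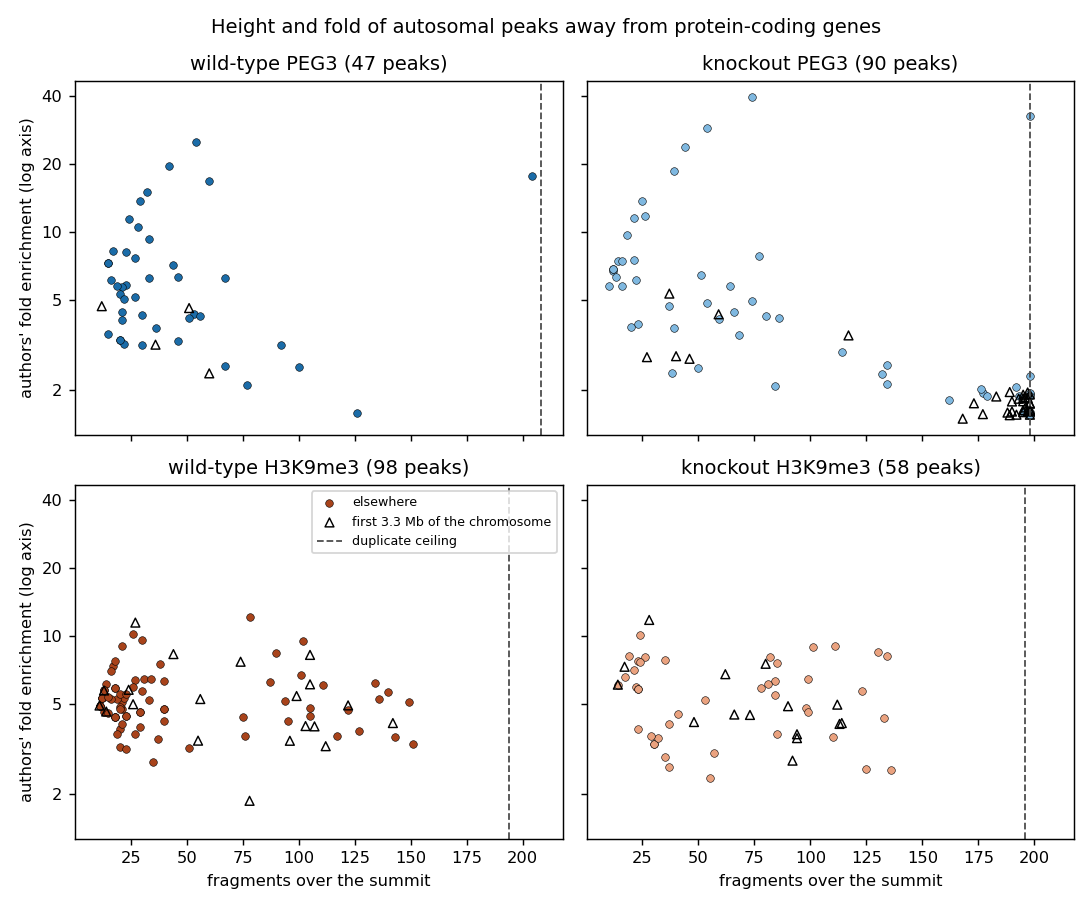
Fragments over the summit (x axis) and fold enrichment (y axis, log scale) of each peak away from protein-coding genes, by list; triangles lie in the first 3.3 Mb of a chromosome and dashed lines give the highest number of fragments the library allows. In knockout PEG3, 45 of 90 peaks stand at 80% or more of the limit, all but 1 with folds of 1.5 to 2.32. H3K9me3 peaks reach at most 151 fragments.

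Overlap between genotypes, of at least 1 bp, was found for 23 of 47 wild-type PEG3 peaks (48.9%, against 40.8% of all listed peaks) and 23 of 90 knockout PEG3 peaks (25.6%, against 39.9%). In or near protein-coding genes the shares were 38.0% and 59.4%. By region, 22 held PEG3 peaks of both genotypes, 16 of wild type alone and 20 of knockout alone, so in terms of regions 52.4% of the 42 with knockout PEG3 peaks were shared. For H3K9me3, 40 of 98 wild-type peaks (40.8%, against 38.2%) and 40 of 58 knockout peaks (69.0%, against 72.0%) overlapped, and 21 regions held both genotypes, 31 wild type alone and 11 knockout alone. Without the 5 regions of all lists the H3K9me3 shares were 23.0% and 50%. The shared wild-type H3K9me3 peaks had a median of 101.5 fragments and those of wild type alone 21, while the median folds were 4.74 and 5.27.

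Peaks of wild-type PEG3 alone included some in lncRNA genes. The highest by fold lay in Gm30636 on chromosome 16 (33 fragments, 9.34-fold), and one of 23 fragments and 5.84-fold lay in Morrbid, a lncRNA gene near the apoptosis gene Bcl2l11. Both were picked out after their values were seen. Among knockout PEG3 peaks below the duplicate limit and without a wild-type partner, the highest fold was 9.76 (18 fragments, chromosome 1, 154415 bp from Gulp1).

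The 5 highest PEG3 folds of each genotype, among peaks that were alone in their region and list, were at peaks listed in both genotypes. The first in wild type, 25.1-fold, lay in Igh, the immunoglobulin heavy chain locus, which the gene table does not class as protein-coding (chr12:115372251-115372387, 54 fragments in wild type and 25 in knockout). The second, 926559 bp from Bcl11a on chromosome 11, had 42 and 54 fragments and folds of 19.6 and 29.0. The first in knockout, 39.5-fold, lay on chromosome 6 (chr6:132463681-132463816), 9589 bp from the pseudogene Gm18326, with 60 fragments in wild type and 74 in knockout, and a wild-type H3K9me3 peak of 22 fragments overlapped it. Its recovered background was 2.64 in wild type and 0.899 in knockout. The Igh and Bcl11a peaks had 1.19 and 0.899. The values 1.19 and 0.899 are the lowest of the lists away from genes, so these folds divide by a floor that differs between the libraries.

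Heights at shared peaks were compared as fragments per kept ChIP tag, with exact conditional intervals. For PEG3 the 23 pairs had a median knockout to wild-type ratio of 1.22 (range 0.394 to 1.91), with 11 pairs lower and 12 higher in knockout. The median pair was the peak in Gm34259. Its 204 wild-type and 198 knockout fragments stood near or at the duplicate limits of 208 and 198, which bound its ratio. Without that pair the median of the other 22 was 1.11. The interval lay wholly below 1 at 2 pairs (12.9% of all shared wild-type PEG3 peaks did) and wholly above 1 at 6 (16.1%). The 6 include the Gm34259 pair, with an interval of 1.0003 to 1.49. The lowest ratio, 0.394 (interval 0.173 to 0.821), was at a peak of 32 wild-type and 10 knockout fragments on chromosome 13, 90541 bp from Pxdc1. The other ratio below 1 by its interval was the Igh peak, 0.583 (0.348 to 0.953). The highest, 1.91 (1.17 to 3.17), was at a peak of 29 and 44 fragments in the lncRNA gene D130079A08Rik on chromosome 14, 124668 bp from Pou4f1, which encodes a neuronal transcription factor. Next came 1.75 (1.05 to 2.96) at 28 and 39 fragments, 124820 bp from Marcks, and 1.62 (1.06 to 2.48) at the peak far from Bcl11a. The pairs therefore went in both directions. By region, the median ratio was below 1 in 11 of 22 regions and above in 11, and the median of region medians was 1.09. Over all 62 shared PEG3 peaks, those at genes included, the median was 0.939, with 35 lower and 27 higher in knockout, so the side of 1 on which the median fell differed from that of the 23 pairs. The median of the ratios of the authors' folds was 1.14 for the 23 pairs.

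For H3K9me3 the 40 pairs, in 16 regions, had a median ratio of 0.898 (range 0.617 to 1.37), with 31 lower and 9 higher in knockout. The interval lay wholly below 1 at 5 pairs (10.6% of all shared wild-type H3K9me3 peaks did) and wholly above 1 at 1 (6.06%). The lowest ratios, 0.617 (0.446 to 0.849) and 0.670 (0.490 to 0.912), were both in the chromosome 10 region, at 103 and 66 fragments and at 105 and 73. The peak in Gm36684 had 111 and 81 fragments, a ratio of 0.703 (0.521 to 0.945). The 1 ratio wholly above 1, 1.37 (1.05 to 1.81), was in 2700054A10Rik, where a single knockout peak of 134 fragments overlapped 2 wild-type peaks and was paired with both. By region, the median ratio was below 1 in 11 of 16 regions and above in 5, and the median of region medians was 0.980. The direction depended on the scale: the ratios of the authors' folds, which also divide by the local input, had a median of 1.08. Over all 66 shared H3K9me3 peaks the median ratio was 0.900, with 47 lower and 19 higher.

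**Figure D5:**
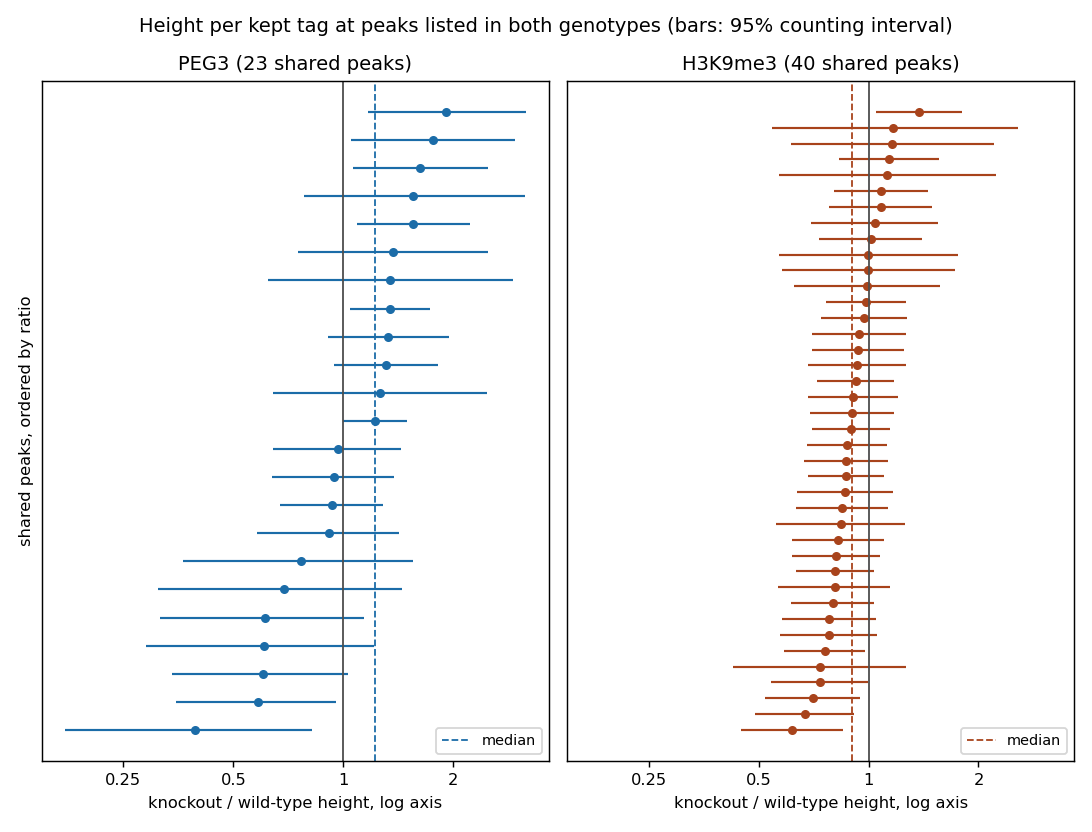
Knockout to wild-type ratio of fragments per kept tag (x axis, log scale) at each peak listed in both genotypes, ordered by ratio, with 95% counting intervals; the dashed line is the median. PEG3 pairs spread from 0.394 to 1.91 around a median of 1.22, and H3K9me3 pairs from 0.617 to 1.37 around 0.898. The PEG3 median is the ratio of the Gm34259 pair, whose heights stood near or at the duplicate limit.

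Overlap between antibodies was found for 15 of 47 wild-type PEG3 peaks (31.9%, against 15.1% of all listed peaks and 7.0% of those in or near protein-coding genes) and 16 of 90 knockout PEG3 peaks (17.8%, against 12.9% and 5.80%). From the side of H3K9me3, 14 of 98 wild-type peaks (14.3%, against 13.3%) and 14 of 58 knockout peaks (24.1%, against 20.4%) overlapped a PEG3 peak. These overlaps were concentrated in few regions, 11 in all. Without the 5 regions of all lists, 1 of 75 knockout PEG3 peaks (1.33%) and 1 of 36 knockout H3K9me3 peaks (2.78%) overlapped the other antibody, while 6 of 38 wild-type PEG3 peaks (15.8%) still did. The 1 remaining knockout overlap was on chromosome 8, near the pseudogene 6820431F20Rik, with 23 PEG3 and 29 H3K9me3 fragments. The wild-type overlaps outside the 5 regions included a peak of 53 PEG3 and 87 H3K9me3 fragments 5066 bp from Aadac on chromosome 3, a peak of 46 and 101 fragments next to Gm40237 on chromosome 4, and 2 peaks of 100 and 67 PEG3 fragments at chr9:124256329-124258005, over H3K9me3 peaks of 151 and 122. At these 3 places knockout H3K9me3 peaks were listed but no knockout PEG3 peak was. The same held for the overlap at the start of chromosome 16. The overlap near Gm18326 on chromosome 6 went the other way, with a knockout PEG3 peak of 74 fragments and no knockout H3K9me3 peak. The libraries of a genotype share their input, so these overlaps are not independent of it.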

How the data were processed

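Bowtie2, SAMtools and the mm10 build are named by the submitters' processing notes; the versions of both tools are not given in the sources used here. Per the file headers, the authors ran MACS2 2.2.6 on every ChIP sample separately, with the matching genotype's input as control, a q cutoff of 0.05 and 1 tag kept per position. The deposited tables give the pileup signal of the summit, the fold (ratio of pileup to local input, each raised by 1), −log10 p and −log10 q. The header names of the last pair were lost in the deposited tables. They were identified from the values: −log10 p recomputed from pileup and background differed by at most 0.00335, and the other column was lower in 581 of 581 rows.

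Fragments are the pileup divided by the ChIP scale of the header (within 0.00537 of whole numbers), and the background is recovered from the fold. The PEG3 libraries kept 21396407 tags in wild type and 16986250 in knockout, and those of H3K9me3 26295696 and 27289192. Gene bodies and types were read from a RefSeq gene table for mm10 (49660 genes used, 21789 protein-coding) without strand or exons. From it 333 genes with scaffold coordinates were left out, a step chosen after seeing the data. No test across peaks was made. Shares have Clopper-Pearson intervals and ratios exact conditional intervals, checked on simulated data; a peak with several partners was paired with the highest.

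The peaks, gene lists and tests were chosen with earlier results of these data known. Named were the regions of all 4 lists and the 10 with most peaks, per list the 5 highest folds among peaks alone in their region and list (a reading settled after the files were seen), per antibody the peaks of both genotypes that ranked first by wild-type fold and by low or high ratio, and peaks at small RNA genes, named pseudogenes or genes of 4 lists; a few of these are given here by count. The arithmetic of the duplicate limit and the search of 4 motifs were also chosen later. Python 3.11.15 was used with SciPy 1.17.1, pandas 2.3.3 and NumPy 2.4.6, and matplotlib 3.10.9 drew the figures.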

Additional observations from a re-analysis of the deposited data

Results flagged for a closer look

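The change in number of peaks away from protein-coding genes went in opposite directions for the antibodies: knockout over wild type was 1.91 for PEG3 (90 against 47 peaks) and 0.592 for H3K9me3 (58 against 98). Over all autosomal peaks the values were 1.08 (159 against 147) and 0.564 (88 against 156), and in or near protein-coding genes 0.690 (69 against 100) and 0.517 (30 against 58), so the H3K9me3 list was shorter in both places. The median knockout over wild-type height ratios at shared peaks also lay on opposite sides of 1, at 1.22 for PEG3 and 0.898 for H3K9me3. Without the pair at the duplicate limit the PEG3 median was 1.11. The PEG3 pairs were split, with 11 lower and 12 higher in knockout, against 31 lower and 9 higher for H3K9me3. Over all shared peaks, those at genes included, both medians were below 1, at 0.939 for 62 PEG3 peaks and 0.900 for 66 H3K9me3 peaks, and the ratios of the authors' folds at the shared peaks away from genes were both above 1, at 1.14 and 1.08. Both were singled out because the values away from genes lie on opposite sides of 1 for the same genotypes. With 1 library per group neither difference was tested. Of the 90 knockout PEG3 peaks 45 stood at 80% or more of the duplicate limit.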

How the results depend on the processing

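For 31 results, 190 values were computed under other settings, and 156 stayed within the interval or within 1.5 times of the count. No reversal of a tested call could occur, since no test was made. PEG3 values come before H3K9me3 values, each with wild type first. A margin of 10 kb around genes in place of 1 kb left 50 and 34 H3K9me3 peaks, of which 12.0% and 14.7% lay in the first 3.3 Mb. With chromosome starts of 3.1 Mb the shares were 0% for wild-type PEG3 and 4.08% and 5.17% for H3K9me3. Counting summits within 10 kb of a noncoding gene gave 55.3%, 40%, 56.1% and 65.5%. At least 50% of the highest pileup was reached by 22.4% and 25.9% of H3K9me3 peaks. Overlap with the other antibody at 50% reciprocal overlap was 12.8%, 8.89%, 6.12% and 13.8%, and with gaps up to 1000 bp 29.6% in wild-type H3K9me3, whose overlap with knockout was then 53.1%. Overlap of knockout PEG3 with wild type was 39.3% without the first 3.3 Mb, 48.9% without peaks at the duplicate limit and 52.4% by region, and with H3K9me3 33.3% without peaks at that limit. The ratios of the authors' folds turned the H3K9me3 median from 0.898 to 1.08.

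Among 8 alternatives chosen after seeing the data, leaving out peaks at the duplicate limit gave 45 knockout PEG3 peaks, and keeping genes with scaffold coordinates gave 47, 90, 98 and 58 peaks, as without them. Without the chromosome 9 region, 11.1% of knockout PEG3 peaks lay in the first 3.3 Mb and 28.6% at the limit. Without the 5 regions of all lists, overlap with the other antibody was 15.8% (wild-type PEG3), 1.33% (knockout PEG3) and 2.78% (knockout H3K9me3). Overlap with the other genotype was then 23.0% and 50% for H3K9me3. The shares of summits in noncoding genes were then 26.3%, 13.3%, 17.6% and 19.4%. The cause of these shifts was not tested. No paired analysis was possible because each group had 1 sample and no test was made. Knockout PEG3 was the shallowest library, and a site absent from a list has no height.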
